A study of Mus musculus with 12 samples.

Results

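The smooth muscle contractile genes described here are 10 genes, Acta2, Actg2, Tagln, Myh11, Cnn1, Des, Mylk, Lmod1, Tpm2 and Flnc. They were chosen by symbol for their role in the contraction of smooth muscle, with earlier results of these data known. They are 10 of the 50559 genes in the deposited count table, and each was followed through all 12 retina libraries. The study asked how blocking pericyte recruitment to the growing retinal vessels, with and without the antibiotic minocycline, changes the retina. RNA was sequenced from retinas of wild-type C57BL6/J mice on day 28 of life, with 3 libraries in each of 4 groups.

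The IgG group received 30 µg of a rat IgG isotype antibody on day 1. The APB5 group received 30 µg of APB5, a rat monoclonal antibody against the mouse receptor PDGFRB, on day 1. IgG+Mino and APB5+Mino received the same antibodies and, from day 5 to day 27, daily intraperitoneal minocycline at 45 mg per kg. Which cells the antibody reached was not measured in these data, and no group was left without any injection.

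Arteriolar smooth muscle cells and some pericytes wrap retinal vessels and set their calibre. They contract when myosin light chain kinase phosphorylates myosin, which then pulls on filaments of smooth muscle actin that are anchored to the cell's dense bodies and intermediate filaments. Many genes of this machinery are switched on by serum response factor (SRF) with its partners of the myocardin family, which act through a DNA element called the CArG box, and activated fibroblasts are known to use several of the same genes. In a whole retina these cells are few, and a change in the number of such cells and a change in their RNA per cell cannot be told apart.

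Total counts ranged from 52740545 to 59411044 per library, so that 3 counts correspond to 0.0448 to 0.0587 CPM (read counts scaled to a common library size, with TMM factors throughout). APB5 replicate 3 stood apart from the other 11 libraries. Its score on the first principal component of log2 CPM, which held 38.4% of the variance, was 126.4, against −53.9 to 25.69 in the others. The transcript of Pdgfrb, the receptor that the antibody binds, lay at 38.0 CPM in this library and between 12.8 and 20.1 CPM in the others, which does not test the block of the protein. Xist, which silences an X chromosome in female cells, was abundant (47210 counts or more) in the 3 IgG libraries and in replicate 3 of both APB5 and APB5+Mino. The remaining 7 libraries held 38 Xist counts or fewer. Without APB5 replicate 3, the comparison of APB5 with IgG therefore sets libraries without Xist against libraries with it, and antibody and sex cannot be told apart there. In APB5+Mino against APB5, leaving it out keeps abundant Xist in APB5+Mino replicate 3 only, so that minocycline and sex are then partly mixed. The members' fold changes given from main fits that include that library are shown with and without it, as are the list medians given.

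Acta2 encodes smooth muscle alpha-actin, the actin of the contractile thin filament, and lies on chr19:34217737-34232990 of GRCm39, on the minus strand, with 9 exons in its canonical transcript. Its levels were 4.28, 5.55 and 3.73 CPM in the IgG libraries and 4.45, 2.67 and 4.68 CPM in IgG+Mino. In APB5 they were 8.79, 7.61 and 160.5 CPM. In APB5+Mino they were 2.52, 3.25 and 4.51 CPM. All 3 APB5 libraries lay above all the others, and APB5 replicate 3 was 18.3 times as high as the next library, APB5 replicate 1. The other 3 groups overlapped. Stambpl1 overlaps Acta2 on the opposite strand, and whether the counting used the strand was not given in the sources used here.

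The stretch before the start site is shown for 3 members: for Acta2, which had the largest fitted difference of the members tested in APB5 against IgG, for Flnc, which was higher in every library of APB5-treated mice than in any library of IgG-treated mice, and for Mylk, the member that was lowest where the others were highest. RefSeq's promoter table, built on GRCm38.p6, held 7 of the 10 members, and Actg2, Tagln and Myh11 are named only. Each stretch is the 200 bases before a start site that RefSeq gives, 5′ to 3′ on the gene's strand, and was placed on GRCm39 by an exact match of its sequence. Capitals mark CArG boxes in which at most 1 of the 6 inner bases is G or C. For Acta2 the stretch is chr19:34232774-34232973 on the minus strand, for Flnc chr6:29432952-29433151 on the plus strand, and for Mylk chr16:34605120-34605319 on the plus strand. These starts lie inside the gene as GENCODE draws it, 217 bases from its outer start for Acta2, 80 for Flnc and 39740 for Mylk, so the Mylk stretch belongs to an internal start.
Acta2: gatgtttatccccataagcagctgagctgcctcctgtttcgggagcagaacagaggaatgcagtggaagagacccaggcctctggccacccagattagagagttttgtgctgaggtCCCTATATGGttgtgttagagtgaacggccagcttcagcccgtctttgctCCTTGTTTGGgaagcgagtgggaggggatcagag
Flnc: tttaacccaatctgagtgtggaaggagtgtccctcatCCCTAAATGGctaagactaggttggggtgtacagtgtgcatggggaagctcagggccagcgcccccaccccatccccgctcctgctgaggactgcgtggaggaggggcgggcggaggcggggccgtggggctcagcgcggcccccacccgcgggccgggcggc
Mylk: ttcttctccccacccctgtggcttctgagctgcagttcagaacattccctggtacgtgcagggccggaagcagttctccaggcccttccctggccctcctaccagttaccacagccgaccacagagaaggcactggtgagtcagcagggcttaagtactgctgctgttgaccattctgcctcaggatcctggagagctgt
Acta2 held such boxes starting 84 and 34 bases before its start site, and Flnc held one starting 163 bases before. Flnc has a second start in the table, 183 bases into the gene, and the stretch before that one held no such box. The 7 members had 8 starts in all, and such a box lay within 250 bases before 2 of the 8, against 8.59% of all 32851 promoters. The strict box, with only A or T inside, was before none of the 8 and in 1.47% of all promoters. The letters CATTCC, searched on both strands, were before 4 of the 8 starts (those of Acta2, Mylk and Lmod1 and the second of Flnc) and in 12.6% of all promoters. A match is a run of letters and not a measured binding site.

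Actg2 encodes smooth muscle gamma-actin (chr6:83489887-83513551, minus strand), the actin typical of visceral smooth muscle. It had 1, 2 and 0 counts in IgG, 0, 0 and 5 in IgG+Mino, and 2, 0 and 2 in APB5+Mino. In APB5 it had 14, 1 and 368 counts. The gene was thus at or near the counting floor in 10 of 12 libraries, and 368 counts came from APB5 replicate 3 alone. With so few counts it did not pass the filter on low counts, and no fold change is given for it in the comparisons.

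Tagln encodes transgelin, an actin-binding protein abundant in smooth muscle (chr9:45840909-45847404, minus strand). It stood at 3.72, 5.67 and 3.64 CPM in IgG and 4.34, 2.66 and 3.56 CPM in IgG+Mino. In APB5 it stood at 6.34, 4.86 and 80.0 CPM. APB5+Mino lay at 3.29, 3.03 and 4.08 CPM. APB5 replicate 3 was again far above the rest, at 12.6 times the next library, and APB5 replicate 2 lay within the range of IgG. Pcsk7 overlaps Tagln on the opposite strand, as Elof1 does Cnn1 and Gm15179 does Des, with the same doubt about the strand.

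Cnn1 encodes calponin 1, which binds actin and restrains the myosin motor (chr9:22010512-22020926, plus strand). It had 5, 3 and 3 counts in IgG and 10, 0 and 0 in IgG+Mino. In APB5 it had 20, 8 and 217 counts. In APB5+Mino there were 6, 3 and 3. All APB5 libraries had more counts than all IgG and all APB5+Mino libraries, but outside APB5 replicate 3 the numbers were small, and Cnn1 did not pass the filter on low counts either.

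Tpm2 encodes beta-tropomyosin, which lies along the actin filament (chr4:43514697-43524949, minus strand). Tpm2 measured 1.85, 2.50 and 2.33 CPM in IgG and 1.59, 1.36 and 1.95 CPM in IgG+Mino. In APB5 it measured 3.31, 4.31 and 17.5 CPM. The APB5+Mino libraries measured 2.74, 1.53 and 1.5 CPM. As for Acta2, all 3 APB5 libraries were above all the others. Lmod1, which encodes leiomodin 1, a nucleator of actin filaments in smooth muscle (chr1:135252509-135295907, plus strand), ranged only from 0.561 to 0.967 CPM in 11 libraries and stood at 2.48 CPM in APB5 replicate 3. For Lmod1 the APB5 libraries other than replicate 3, at 0.723 and 0.967 CPM, lay on both sides of the IgG libraries.

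Of the motor genes, Myh11 encodes the smooth muscle myosin heavy chain (chr16:14012399-14109236, minus strand). It stood at 3.13, 4.18 and 2.76 CPM in IgG and 2.28, 2.51 and 3.32 CPM in IgG+Mino. In APB5 it stood at 4.07, 4.75 and 11.8 CPM. APB5+Mino lay at 2.40, 3.01 and 3.18 CPM. The APB5 libraries overlapped IgG but lay above all libraries of both minocycline groups.

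Mylk encodes myosin light chain kinase, the enzyme that starts contraction (chr16:34565580-34822790, plus strand). It overlaps 1700119H24Rik and E130310I04Rik on the opposite strand, so its level holds that doubt too. Its level was 141, 149 and 122 CPM in IgG and 129, 201 and 194 CPM in IgG+Mino. In APB5 it was 124, 146 and 59.1 CPM. In APB5+Mino it was 141, 178 and 152 CPM. APB5 replicate 3, the highest library for the other 9 members, was the lowest for Mylk, at 0.406 times the median of the other 11. Across all 21228 genes tested over the 12 libraries, 24.6% were highest and 24.5% lowest in that library.

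Of the genes of the cell's scaffold, Des encodes desmin, the intermediate filament of muscle and of pericytes (chr1:75320511-75345223, plus strand). Its level was 0.874, 1.21 and 1.04 CPM in IgG and 0.941, 0.637 and 0.817 CPM in IgG+Mino. In APB5 it was 0.994, 0.876 and 5.90 CPM. In APB5+Mino it was 0.841, 0.391 and 0.714 CPM. Outside APB5 replicate 3, no APB5 library was above the IgG range.

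Flnc encodes filamin C, a large protein that cross-links actin and is best known from striated muscle (chr6:29433072-29461887, plus strand, 47 exons). Its level was 1.38, 1.89 and 1.97 CPM in IgG and 2.34, 1.58 and 1.84 CPM in IgG+Mino. In APB5 it was 5.86, 6.63 and 27.1 CPM. In APB5+Mino it was 4.29, 7.63 and 4.42 CPM. All 6 libraries of APB5-treated mice were above all 6 libraries of IgG-treated mice, and APB5+Mino overlapped APB5. The same order held among the libraries with Xist, where IgG reached 1.97 CPM and APB5 replicate 3 and APB5+Mino replicate 3 stood at 27.1 and 4.42 CPM. It also held among those without Xist, where IgG+Mino reached 2.34 CPM and the lowest library of an APB5-treated mouse stood at 4.29 CPM.

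**Figure D1:**
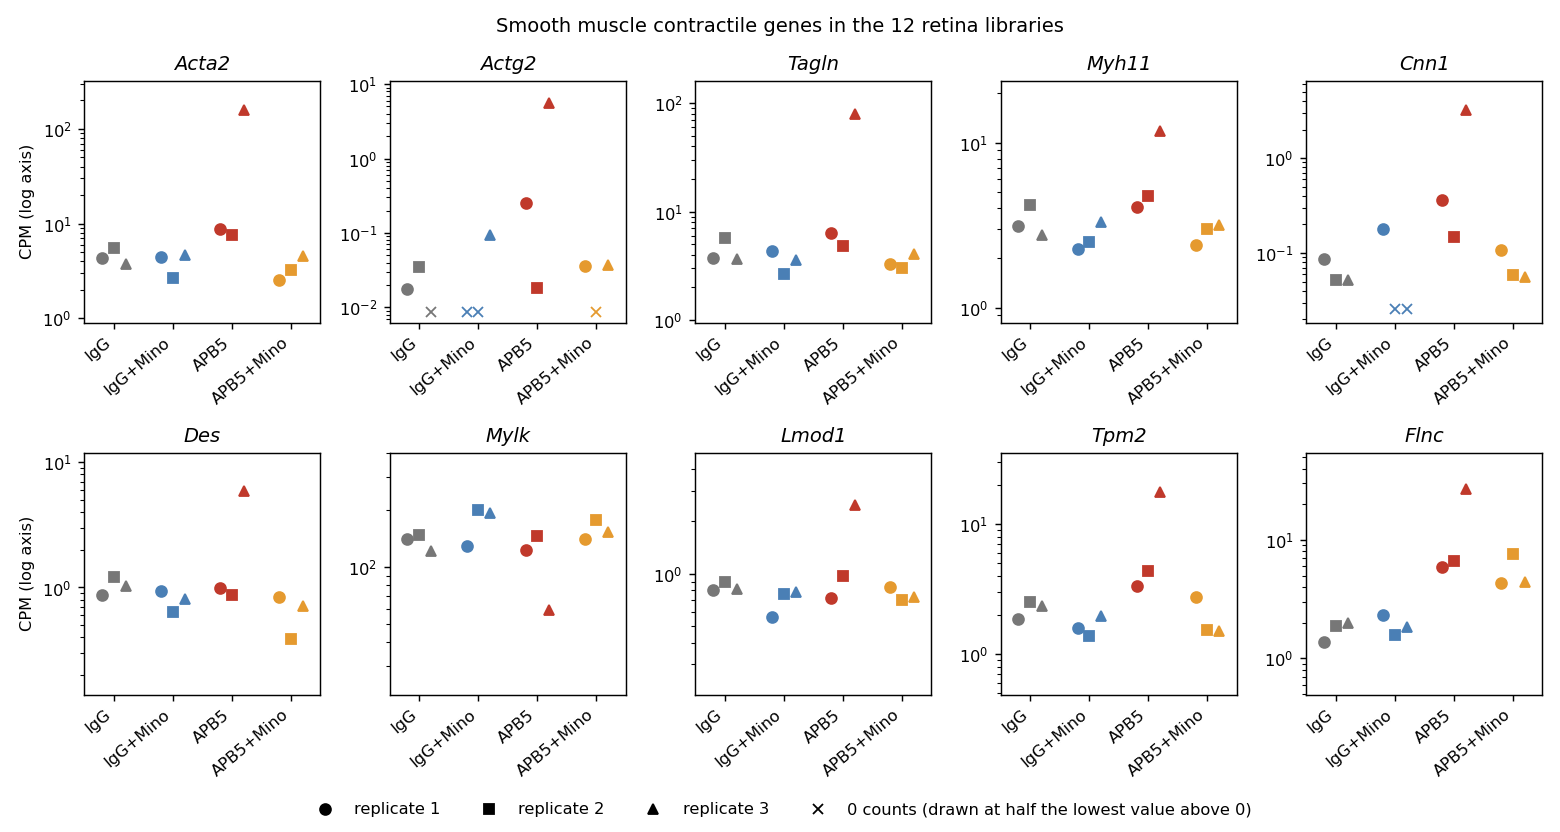
Level of each member (CPM, log axis, one scale per panel) in the 12 libraries, by group, with a marker for each replicate; crosses mark libraries with 0 counts. APB5 replicate 3 is the highest point in 9 panels and the lowest for Mylk, and Flnc is higher in all 6 libraries of APB5-treated mice than in the IgG and IgG+Mino libraries.

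Levels can be compared between genes only per length, and were taken as CPM per kb of the canonical transcript. On this scale Mylk led in IgG, at 17.5 ± 1.75 (SD, n = 3). Tagln followed at 2.63 ± 0.695 and Acta2 at 1.62 ± 0.334, and their ranges did not overlap. Tpm2, at 0.681 ± 0.103, and Myh11, at 0.513 ± 0.112, did overlap. Des stood at 0.332 ± 0.0532. Lmod1 and Flnc, at 0.205 ± 0.012 and 0.191 ± 0.0349, overlapped, and Cnn1 and Actg2 were lowest. In APB5 replicate 3 the order was different. Acta2 stood there at 57.6 and Tagln at 48.4 CPM per kb, both above Mylk at 7.55.

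Most of each member's sequence is its own at the read length of 50 bases. Of the windows of that length along the canonical transcripts, 0.256% were shared with another gene's transcript for Acta2 and 0.4% for Myh11 (with Myh9 and Myh10), and none for the other 8 members.

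The first comparison, APB5 against IgG, asks what the antibody changed without minocycline. Of the APB5 libraries only replicate 3 had abundant Xist, whereas every IgG library did, so antibody and sex were partly mixed here too. None of the 8 members tested was called, that is, none reached both an adjusted p of 0.05 or less and a difference of 1 or more, up or down, on the log2 scale, and neither was any of the 20350 genes tested (0%). The fitted log2 fold change was 3.73 ± 1.20 (SE, n = 3 against 3) for Acta2, 2.83 ± 1.06 for Tagln, 1.92 ± 0.63 for Tpm2 and 1.05 ± 0.44 for Myh11. It was 2.92 ± 0.63 for Flnc, 1.32 ± 0.73 for Des, 0.73 ± 0.47 for Lmod1 and −0.32 ± 0.30 for Mylk. The adjusted p of edgeR's quasi-likelihood test ranged from 0.664 to 0.782.

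Of the 8 members tested, 7 were fitted higher in APB5, and 5 (Acta2, Tagln, Myh11, Tpm2 and Flnc) had an unadjusted p under 0.05, against 5.22% of all genes in that direction. The median log2 fold change of the 8 was 1.62, beside −0.0024 over all genes tested. Acta2, Cnn1, Tpm2 and Flnc were higher in every APB5 library than in every IgG library, and 3 of these 4 passed the filter, against 7.79% of all genes tested. With DESeq2 the only member called was Flnc, at an adjusted p of 0.000126 (0.428% of all genes called), and Acta2 and Tagln received no adjusted p from that tool. Voom with quality weights called no member.

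Without APB5 replicate 3 the differences shrank, and Flnc was called, with a log2 fold change of 1.82 ± 0.22 and an edgeR adjusted p of 0.0432 (0.101% of all genes called). The remaining values were 0.86 ± 0.21 for Acta2, 0.77 ± 0.23 for Tpm2, 0.39 ± 0.23 for Myh11 and 0.37 ± 0.25 for Tagln, none of them called. Lmod1, Mylk and Des lay at 0.02, −0.02 and −0.14. The median went from 1.62 to 0.38, and most of the fitted size for Acta2, Tagln, Tpm2, Myh11, Des and Lmod1 came from that library. When all 12 libraries were fitted together with their Xist level as a further term, here called the Xist covariate, 6 members (all those tested but Mylk and Lmod1) were called (5.57% of all genes called). Within groups, Xist differed strongly only through replicate 3 of APB5 and of APB5+Mino. The term therefore cannot separate sex from what sets APB5 replicate 3 apart, and these calls do not reflect an adjustment for sex alone.

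The second comparison, APB5+Mino against APB5, asks what minocycline changed in APB5-treated mice. None of the 8 members tested was called, while 1.66% of the 20281 genes tested were. Acta2 differed by −4.12 ± 1.27 on the log2 scale (edgeR adjusted p = 0.0755), Tagln by −3.15 ± 1.09 (edgeR adjusted p = 0.0944), Tpm2 by −2.13 ± 0.68 (edgeR adjusted p = 0.0793) and Myh11 by −1.28 ± 0.43 (edgeR adjusted p = 0.0881). Des, at −1.97 ± 0.79, Flnc, at −1.30 ± 0.62, and Lmod1, at −0.87 ± 0.47, had adjusted p-values of 0.126, 0.179 and 0.225 by edgeR. Mylk differed by 0.51 ± 0.30, in the opposite direction. The median of the 8 was −1.63, beside −0.0205 over all genes.

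Acta2, Tagln, Myh11, Cnn1, Des and Tpm2 were lower in every APB5+Mino library than in every APB5 library. Of these 6 members 5 passed the filter, and 22.8% of all genes tested were lower without overlap. For Des the gap was narrow, between 0.841 and 0.876 CPM. For Acta2 the nearest libraries were further apart, at 4.51 and 7.61 CPM. An unadjusted p under 0.05 was reached by 5 members, against 19.2% of all genes in that direction.

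Without APB5 replicate 3, Acta2 was called lower in APB5+Mino, with a log2 fold change of −1.25 ± 0.22 and an edgeR adjusted p of 0.0062 (4.48% of all genes called), which is a level 2.39 times lower. No APB5 library in that fit had abundant Xist, whereas APB5+Mino replicate 3 did, so minocycline and sex were partly mixed in it. Tpm2 (−0.97 ± 0.28), Tagln (−0.69 ± 0.19) and Myh11 (−0.62 ± 0.18) had edgeR adjusted p-values of 0.0312, 0.0264 and 0.0337 but missed the size of 1. Flnc differed by −0.20 ± 0.24, at an edgeR adjusted p of 0.562. Des, Lmod1 and Mylk lay at −0.50, −0.15 and 0.22, and the median of the 8 went from −1.63 to −0.56. Leaving out APB5 replicate 2 instead gave 4 members called (8.59% of all genes). They were Acta2 (log2 fold change −4.64, edgeR adjusted p = 0.0389), Tagln (−3.65, edgeR adjusted p = 0.0435) and the rare members Actg2 and Cnn1 (edgeR adjusted p = 0.0359 and 0.0348). Actg2 and Cnn1 passed the count filter in that fit only through the APB5 libraries left in it, with 14 and 368 counts for Actg2 and 20 and 217 for Cnn1. Their calls therefore add no support. DESeq2 called Myh11, Des and Tpm2 and again gave Acta2 and Tagln no adjusted p, and voom with quality weights called Acta2 and Tpm2, against 7.55% and 7.07% of all genes. With all 12 libraries in the fit 5 members (Acta2, Tagln, Myh11, Des and Tpm2) were called, without and with the Xist covariate, against 7.65% and 9.05% of all genes.

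The values of this comparison are from the fit without pairs, although same-numbered libraries of APB5 and APB5+Mino deviated together. With the replicate number as a block, no member was called, and neither was any other gene (0%), with a log2 fold change of −2.67 for Acta2 and edgeR adjusted p-values of 0.109 for Acta2 and 0.0863 for Myh11. Every call of the main edgeR fit in APB5+Mino against APB5, those of the other gene lists included, was thus lost with the block. The calls by DESeq2, by voom, from the fits of all 12 libraries and from the fits with a library left out were not refitted with it.

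**Figure D2:**
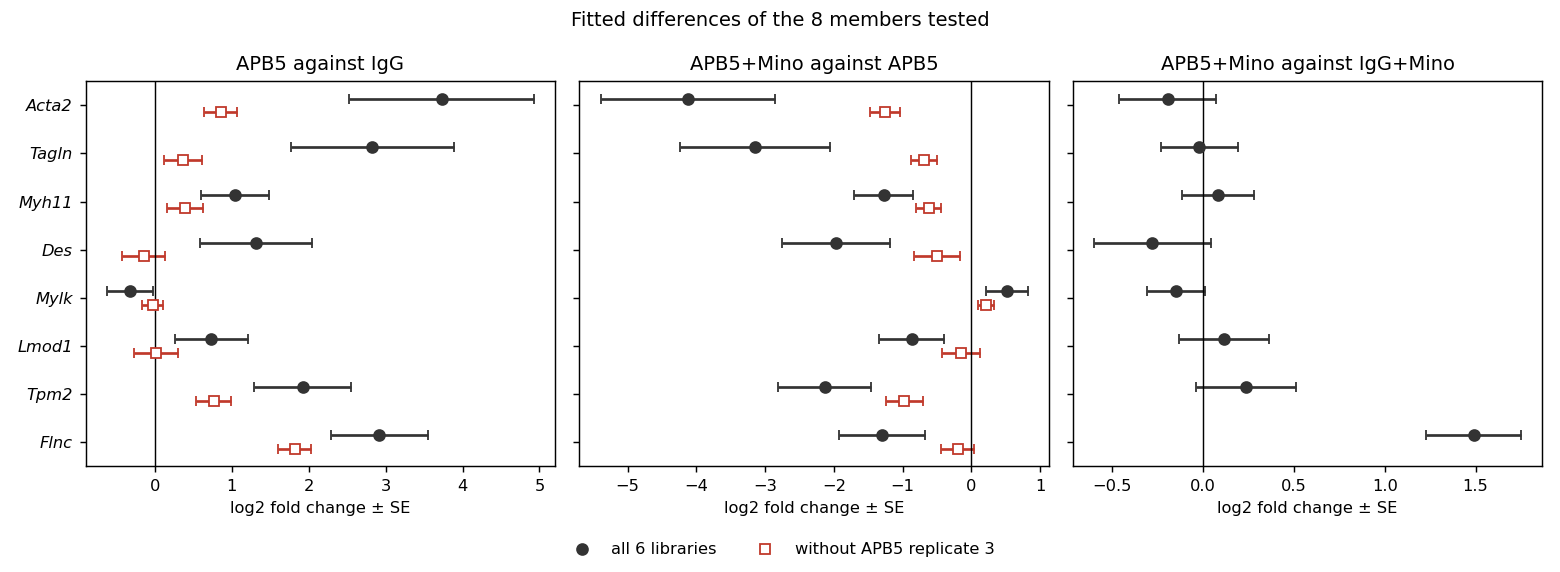
Fitted log2 fold change (x axis, ± SE, a scale of its own in each panel) of the 8 members that passed the filter in 3 comparisons, from all 6 libraries (filled) and without APB5 replicate 3 (open). Leaving out that library moves Acta2 from 3.73 to 0.86 against IgG and from −4.12 to −1.25 against APB5+Mino, and in the right panel Flnc stands apart at 1.49.

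The third comparison, IgG+Mino against IgG, asks what minocycline changed without the blocking antibody. No member was called (0.0298% of 20143 genes were), and none had an unadjusted p under 0.05. The log2 fold changes of the 8 members lay between −0.44 for Tpm2 and 0.35 for Mylk, with a median of −0.27 beside −0.0102 over all genes. Lmod1 alone was lower in every IgG+Mino library than in every IgG library (7.35% of all genes were), and its log2 fold change was −0.24 ± 0.27. Every IgG library had Xist and no IgG+Mino library did, so minocycline and sex cannot be told apart in it.

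The fourth comparison, APB5+Mino against IgG+Mino, asks what the antibody changed in mice that also received minocycline, and it does not involve APB5 replicate 3. No IgG+Mino library had abundant Xist but APB5+Mino replicate 3 did, so antibody and sex were partly mixed here too. Flnc rose, with a log2 fold change of 1.49 ± 0.26 and an edgeR adjusted p of 0.019, a level 2.81 times as high, where 1.23% of the 20049 genes tested were called. The other 7 members tested lay between −0.28 for Des and 0.23 for Tpm2, with edgeR adjusted p-values of at least 0.566. Acta2 differed by −0.19 ± 0.27 and Tagln by −0.02 ± 0.21. DESeq2 called Flnc at an adjusted p of 2.6e-06. The call was lost in a fit of all 12 libraries (edgeR adjusted p = 0.18), with the Xist covariate (edgeR adjusted p = 0.163), and without IgG+Mino replicate 3, APB5+Mino replicate 2 or APB5+Mino replicate 3 (edgeR adjusted p = 0.0864, 0.0806 and 0.0863, at log2 fold changes of 1.45, 1.16 and 1.62).

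Whether the antibody's difference itself depended on minocycline was tested as an interaction over all 12 libraries. Every IgG library had Xist and no IgG+Mino library did, so the interaction also holds that difference in sex, which cannot be told apart from minocycline. No member passed the interaction test, 3 had an unadjusted p under 0.05, and 0.0141% of the 21228 genes tested passed. The interaction was −3.91 ± 1.28 on the log2 scale for Acta2 (edgeR adjusted p = 0.193), −2.83 ± 1.14 for Tagln (edgeR adjusted p = 0.245) and −1.41 ± 0.71 for Flnc (edgeR adjusted p = 0.325). Without APB5 replicate 3 it was −1.07 ± 0.37 for Acta2 (edgeR adjusted p = 0.213), −0.40 ± 0.34 for Tagln (edgeR adjusted p = 0.616) and −0.34 ± 0.36 for Flnc (edgeR adjusted p = 0.695). No member passed there, against 0.32% of all genes. With the Xist covariate, which has the limit given above, 4 members (Acta2, Tagln, Myh11 and Des) passed, against 4.39% of all genes.

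The paralogs of the members behaved unevenly. Of 26 actins, tropomyosins, filamins and other relatives, 22 were tested in APB5 against IgG and none was called, and their median log2 fold change was 0.24, with 20 fitted higher and 2 lower. The median was 0.097 without APB5 replicate 3, with 12 higher and 10 lower. Flna encodes filamin A, the filamin of most cell types. It was at 69.2 to 75.0 CPM in IgG and 70.4 to 83.1 CPM in IgG+Mino, and at 125, 148 and 133 CPM in APB5+Mino. Against IgG+Mino its edgeR adjusted p was 0.0114, but at a log2 fold change of 0.84 ± 0.10 it missed the size of 1. In APB5 it was at 82.4, 90.9 and 151 CPM, so that replicates 1 and 2 lay closer to IgG than to APB5+Mino.

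**Figure D3:**
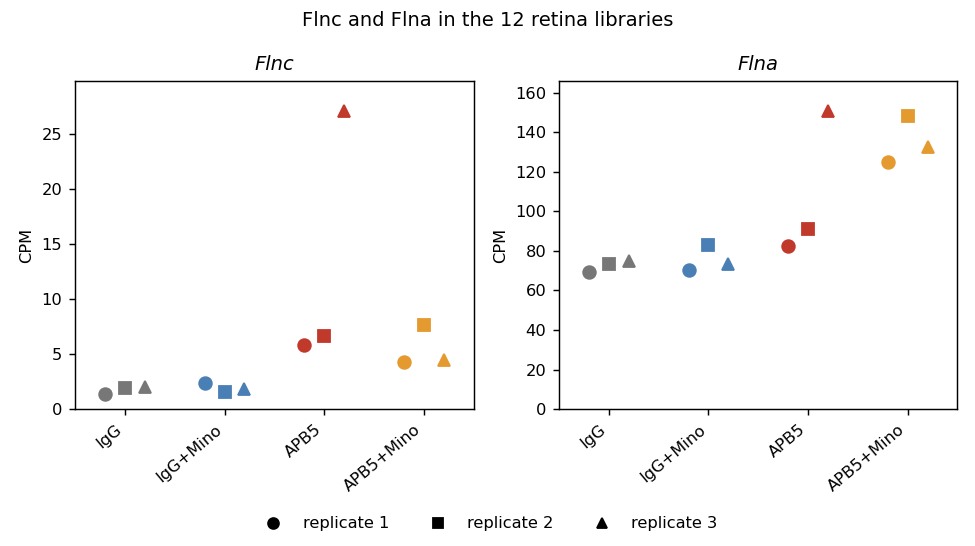
Level of Flnc and Flna (CPM, linear axes from 0) in the 12 libraries, by group and replicate. Flnc is highest in APB5 replicate 3 at 27.1 CPM, and Flna is at 125 CPM or more in the 3 APB5+Mino libraries and in APB5 replicate 3.

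The nonmuscle actins were also highest in APB5 replicate 3, but by less than Acta2. Actb and Actg1 stood at 882 and 870 CPM in APB5 replicate 3 and at most at 648 and 806 CPM elsewhere. Their log2 fold changes in APB5 against IgG were 0.16 and 0.12, and −0.19 and −0.12 without that library. Tagln2 and Cnn2, the relatives of Tagln and Cnn1 that occur outside muscle, differed by 1.97 and 1.68 on the log2 scale between APB5 and IgG, at edgeR adjusted p-values of 0.664 each, and by 0.77 and 0.33 without APB5 replicate 3. Tagln2 stood at 69.3 CPM in APB5 replicate 3 and at most 16.3 CPM elsewhere. Without that library, Cnn2 was called lower in APB5+Mino than in APB5 (log2 fold change −1.05, edgeR adjusted p = 0.011).

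The other genes of contraction and of dense bodies, 20 in number and all tested, had a smaller median difference than the members. In APB5 against IgG none was called, 17 were fitted higher and the median log2 fold change was 0.27. When APB5 replicate 3 was left out, 13 were fitted higher and the median was 0.062. In APB5+Mino against APB5 the only one called was Pdlim3, which encodes a PDZ and LIM protein of the actin cytoskeleton. Pdlim3 was at 12.2, 12.8 and 18.6 CPM in IgG and at 33.9, 28.5 and 80.5 CPM in APB5. It ranged from 11.6 to 13.9 CPM in APB5+Mino. Here the groups did not overlap in either comparison, and Pdlim3 fell by 1.95 ± 0.40 on the log2 scale (edgeR adjusted p = 0.0476), and fell by 1.32 ± 0.12 without APB5 replicate 3. Casq2, a calcium store protein of muscle, was lower in APB5+Mino than in IgG+Mino (log2 fold change −1.21 ± 0.28, edgeR adjusted p = 0.0368). Casq2 was also called lower in APB5+Mino than in APB5 when APB5 replicate 3 was left out (log2 fold change −1.19 ± 0.30, edgeR adjusted p = 0.0213). The library left out stood at 0.867 CPM for Casq2, within the APB5+Mino range of 0.519 to 1.04 CPM. No gene of the list was called in IgG+Mino against IgG.

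Among 10 regulators of the SRF and myocardin programme, all tested, none was called in APB5 against IgG, where 9 were fitted higher with a median log2 fold change of 0.22 (9 and 0.15 without APB5 replicate 3). Srf itself stayed between 41.5 and 56.8 CPM in all 12 libraries. Myocd, the coactivator that drives smooth muscle genes, was at 2.22, 2.22 and 0.691 CPM in IgG and at 4.03, 3.07 and 6.71 CPM in APB5. These groups did not overlap, but Myocd was not called, and it reached 4.13 CPM in APB5+Mino. Klf4, a factor known to repress contractile genes, was called lower in APB5+Mino than in APB5 (log2 fold change −2.21 ± 0.28, edgeR adjusted p = 0.043) and lower than in IgG+Mino (−1.79 ± 0.27, edgeR adjusted p = 0.0125). Klf4 ranged from 1.22 to 1.5 CPM in APB5+Mino, against 4.58 to 8.68 CPM in APB5, and from 2.27 to 13.5 CPM in IgG. Of 16 genes of the control of contraction by calcium and myosin phosphatase, such as Rock1 and Ppp1r12a, none was called in any of the 4 comparisons of groups.

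Markers of other cells moved with APB5 replicate 3. The summed level of 12 fibroblast and myofibroblast markers was 1388 CPM there and 300 to 400 CPM in the other 11 libraries. Col1a1, a chain of type I collagen, stood at 294 CPM in that library and at most at 6.02 CPM elsewhere. Of these markers, 11 were tested in APB5 against IgG, 11 were fitted higher and none was called, with a median log2 fold change of 1.75. Without that library 7 were fitted higher and 4 lower, with a median of 0.15. The sum of 10 pigment epithelium and melanocyte markers was 1196 CPM there and at most 570 CPM elsewhere, and that of 12 microglia and macrophage markers 488 CPM against at most 60.1 CPM. Müller glia and gliosis genes summed to 7183 CPM against at most 3902 CPM, and endothelial markers to 377 CPM against at most 308 CPM. The 9 rod markers, by contrast, summed to 9048 CPM there and to 26565 CPM or more in every other library. Their part in the members' values was not tested.

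The 12 pericyte markers summed to 486 CPM in APB5 replicate 3, the lowest of the 12 libraries, but Vtn, which photoreceptors also express, made up 181 CPM of it and 510 CPM or more elsewhere. Of these markers, 9 were fitted higher in APB5 than in IgG and 3 lower, or 8 and 4 without that library, and none was called. Kcnj8 and Abcc9, the subunits of the potassium channel of pericytes, were not among those higher. Kcnj8 was at 3.48 to 3.94 CPM in IgG and, without overlap, at 2.06 to 3.03 CPM in APB5, and Abcc9 was at 6.28 to 7.05 and at 5.89 to 6.46 CPM. Rgs5, a marker of pericytes and vascular smooth muscle, was at 67.0 to 74.0 CPM in IgG, at 89.0, 88.0 and 162 CPM in APB5 and at 40.7 to 49.0 CPM in APB5+Mino. Rgs5 and Ndufa4l2, another pericyte marker, were called lower in APB5+Mino than in APB5, with log2 fold changes of −1.36 ± 0.26 and −2.79 ± 0.19 (edgeR adjusted p = 0.0461 and 0.0203). For Rgs5 the APB5 libraries lay above those of the other groups, as for Acta2 and Tpm2, in all 3 replicates. Rgs5 missed the size of 1 when APB5 replicate 3 was left out (−0.99 ± 0.09, edgeR adjusted p = 0.000823), and Ndufa4l2 was still called.

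Without APB5 replicate 3, markers of other cells still differed between APB5+Mino and APB5, beside Acta2. Called lower there were 3 of the 11 fibroblast markers tested (Col1a2, Col3a1 and Pdgfra). So were 4 of 10 pigment cell markers (Tyrp1, Dct, Mlana and Pmel) and 7 of 12 microglia and macrophage markers. Also called were 5 of 12 gliosis genes, 3 of 12 endothelial markers (Cldn5, Tie1 and Vwf) and, of 12 pericyte markers, Ndufa4l2. Of all genes tested, 4.48% were called in that fit, which partly mixed minocycline with sex and was not refitted with the block. In APB5 against IgG without that library, the only markers called were the gliosis genes Gfap, Lcn2 and Fgf2, beside Flnc. With all libraries, Cldn5, Tie1, Vwf, the gliosis genes Edn2 and Fgf2, and Cx3cr1, a receptor of microglia, were also called lower in APB5+Mino than in APB5. Cx3cr1 was called lower than in IgG+Mino too (log2 fold change −2.21 ± 0.38, edgeR adjusted p = 0.0182). Markers of striated muscle were low. The sum of 16 skeletal and cardiac muscle markers ranged from 7.01 to 17.2 CPM, with the highest sum in APB5 replicate 3 and at most 16.0 CPM elsewhere. Myh2, a fast skeletal myosin, had 0 counts in 9 of the 12 libraries, all APB5 libraries among them. Of these markers, Tnnt2, a cardiac troponin, was called lower in APB5+Mino than in APB5 (log2 fold change −2.00 ± 0.22, edgeR adjusted p = 0.043).

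**Figure D4:**
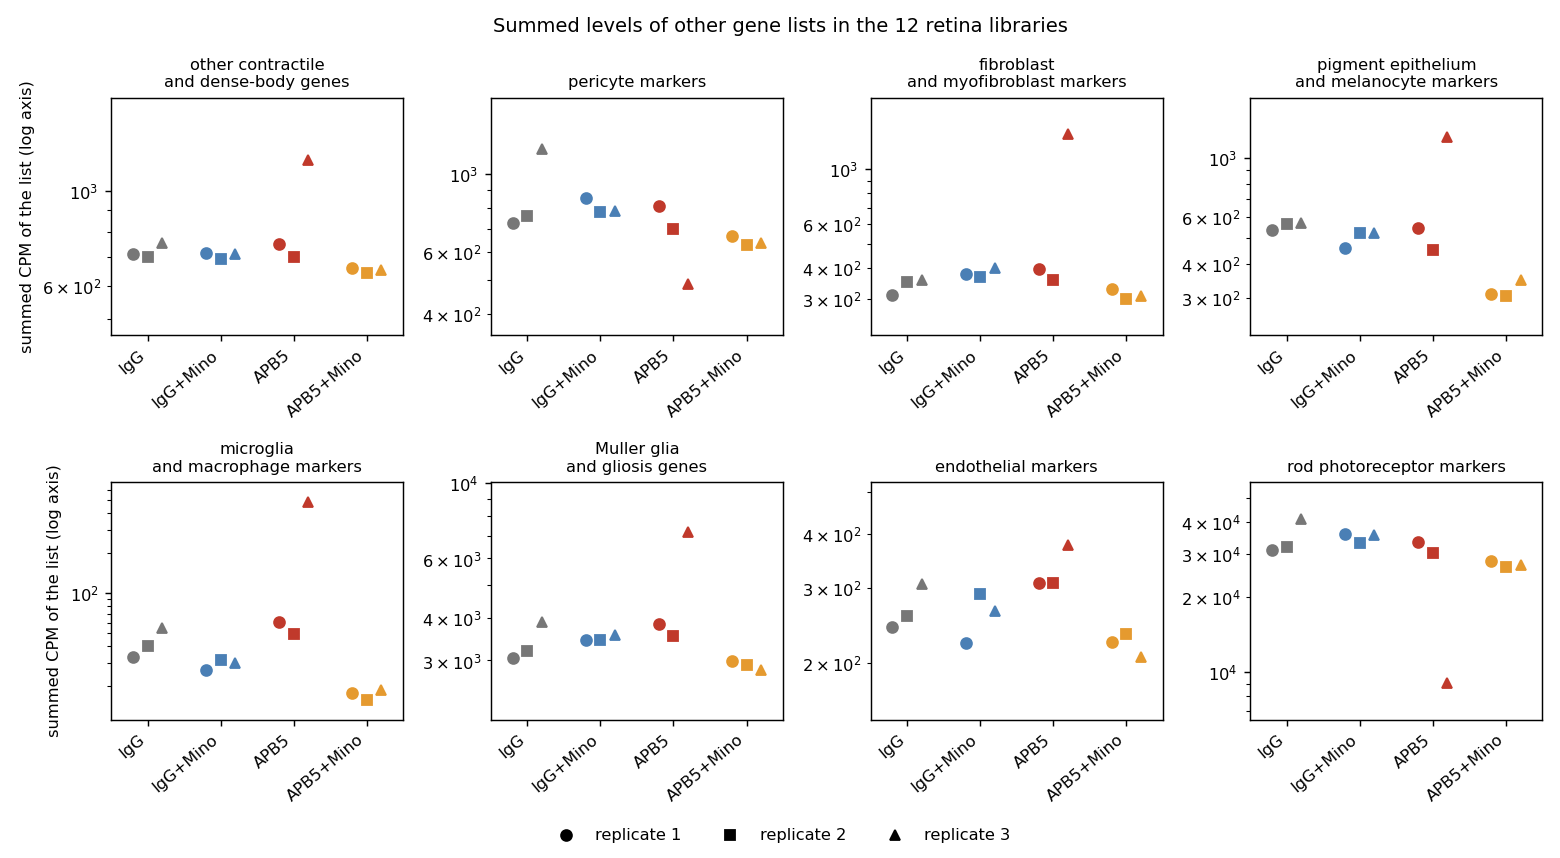
Summed level (CPM, log axis, one scale per panel) of 8 gene lists in the 12 libraries, by group and replicate. APB5 replicate 3 is the highest library for 6 of the lists, at 1388 CPM for fibroblast markers, and the lowest for pericyte and rod markers.

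The genes whose levels were most like the members were found by Pearson's correlation with the mean centred log2 CPM of the 8 tested members, among 15804 genes with a mean of at least 1 CPM. Over the 12 libraries they were Serpina3n and Lcn2 (r = 0.988 each), Msn (0.987), Cp (0.983), Ano6 and Fzd6 (0.981 each), Col14a1 (0.98) and Tagln2 (0.979). Serpina3n, a protease inhibitor of reactive glia, was at 1341 CPM in APB5 replicate 3 and at 6.05 to 25.2 CPM in the other 11 libraries. All these points share that library. With deviations from the group means the leading genes were Gpc1 (0.996), Kcng4 (0.995), Serpinf1, Selenop, Fgfr1, Lcn2, Ano10 and Aebp1. Each of these too was highest in APB5 replicate 3, with Gpc1 at 101 CPM there and at 37.6 to 45.2 CPM elsewhere. Over the 11 libraries without APB5 replicate 3, a choice made after seeing the data, the leading genes were Cd38 (0.94), Lcn2 (0.911), Mrc2 (0.904), Msn (0.896), Tnfrsf1b, Slc6a2, Serpina3n and En2. Lcn2 stood in all 3 of these sets. By Spearman's rank correlation it was not among the leading 8, which Gldc (0.958), Tent5a (0.951) and Msn (0.944) led over the 12 libraries and Mpp1 (0.986), Gpc1 (0.972) and Kcng4 (0.965) led with deviations from the group means.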

How the data were processed

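Per the labels and the study's methods, poly-A RNA of 12 retinas was sequenced as strand-specific single 50-base reads, converted with bcl2fastq 2.20 and processed by the authors with DRAGEN on mm39. The deposited table gives a raw count per gene. It holds 50559 genes and 3 repeated columns, identical to those they repeat and not used. The authors' tables of comparisons, with fold changes and p-values, were not used, and the further deposited copies were not analysed here.

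Samples were grouped by their titles. R 4.3.3 with edgeR 4.0.16 computed TMM-scaled CPM. Low genes were removed by filterByExpr (minimum count 10), which left Actg2 and Cnn1 untested. For pairs of groups, edgeR's two-sided quasi-likelihood test (prior count 2) was run with Benjamini-Hochberg adjustment over all genes tested. Calls needed an adjusted p no higher than 0.05 and a difference no smaller than 1, up or down, on the log2 scale. The tests were checked on simulated counts in which no library stood apart and sex was not modelled, so the check does not cover those features of the data. Labels and methods give 3 mice per group, and p-values measure the spread between these libraries. The ± values are SDs between libraries or SEs of the edgeR fits, and no counting intervals are given.

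DESeq2 1.42.0, voom with quality weights (limma 3.58.1), other scalings, filters and fits, and leaving out each library served as alternatives. Named genes are the 10 members, called genes of the other lists, relatives of the members, the 8 genes most like the members by Pearson's correlation of levels and of deviations from group means, Pdgfrb and Xist. Other genes named as examples were chosen after their values were seen. The members and lists were chosen with earlier results of these data known. The lists were other contractile genes, SRF regulators, control by calcium and myosin phosphatase, paralogs, and markers of pericytes, fibroblasts, endothelium, striated muscle, pigment cells, cornea with lens, microglia, gliosis and rods. Some genes of these lists are not reported here.

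Libraries share replicate numbers, and what a number marks is not given in the sources used here. In APB5+Mino against APB5, the correlation of deviations from group means was 0.134 to 0.182 for same-numbered pairs and −0.157 to 0.0194 for the others, which meets the rule for pairs set for this work (each over 0.1). In both of these groups only replicate 3 had abundant Xist, so a shared number and a shared sex were partly mixed. The fit without pairs was the main one, and the block was an alternative. In each other comparison at least 1 same-numbered pair was under 0.1. Coordinates are those of GENCODE M39 on GRCm39. Promoters are from RefSeq.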

Additional observations from a re-analysis of the deposited data

How the results depend on the processing

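The count of members called changed with the tool and with the libraries more than with the scaling or the filters. In APB5 against IgG the count was 0, 1 with DESeq2 and 6 with the Xist covariate. In APB5+Mino against APB5 it was 0, 3 with DESeq2, 2 with voom and quality weights, 5 with all 12 libraries in the fit and 5 with the Xist covariate. In APB5+Mino against IgG+Mino it was 1, and 0 in the fit of all 12 libraries and with the Xist covariate. In the interaction it was 0, and 4 with the Xist covariate. Leaving out 1 library gave 0 to 1 members in APB5 against IgG (1 without APB5 replicate 3), 0 to 4 in APB5+Mino against APB5 and 0 to 1 in APB5+Mino against IgG+Mino. The 4 include the rare Actg2 and Cnn1, which passed the filter there only through APB5. No other setting, robust estimation and RLE scaling included, moved these counts, and the causes were not tested.

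Over all genes, APB5 against IgG called 0 genes, 87 with DESeq2, 27 with voom, 5 without the count filter, 7 with all 12 libraries, 1183 with the Xist covariate, and 0 to 21 with 1 library left out. APB5+Mino against APB5 called 336, then 5 with library size only, 1531, 1433, 568, 1623 and 1922 in the same order of tools and fits, and 0 to 1789 with 1 library left out: 1 without APB5 replicate 1, 1789 without APB5 replicate 2, 923 without APB5 replicate 3 and 0 when an APB5+Mino library was left out. With the replicate number as a block, this comparison called 0 genes and 0 members, and the block changed no other count of members. IgG+Mino against IgG called 6, 23 with DESeq2, 124 with voom, 15 without the filter, 1 with at least 10 counts in every library, 0 with all 12 libraries, 0 with the Xist covariate, and 6 to 10 with 1 library left out. APB5+Mino against IgG+Mino called 246, 588 with voom, 0 with all 12 libraries or the Xist covariate, and 0 to 458 with 1 library left out. The interaction called 3, 395 with DESeq2, 1046 with voom, 34 without the filter, 932 with the Xist covariate, and 0 to 113 with 1 library left out.

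Some small differences changed sign. With the Xist covariate, IgG+Mino against IgG gave log2 fold changes of 2.46 for Acta2, 1.98 for Tagln, 0.51 for Myh11, 1.14 for Des, −0.19 for Mylk, 0.53 for Lmod1 and 0.61 for Tpm2, none called. With it, APB5+Mino against IgG+Mino gave −0.21 for Myh11, 0.074 for Mylk, −0.15 for Lmod1 and −0.045 for Tpm2. Tagln there was 0.00895 with library size only and 0.16 with voom. With voom the interaction was −0.0700 for Mylk and 0.0092 for Lmod1. With 1 library left out, Des in APB5 against IgG ranged from −0.14 to 1.73. In IgG+Mino against IgG, Acta2 ranged from −0.34 to 0.016 and Flnc from −0.042 to 0.25. In APB5+Mino against IgG+Mino, Tagln ranged from −0.19 to 0.17, Myh11 from −0.018 to 0.24, Lmod1 from −0.0098 to 0.18 and Tpm2 from −0.10 to 0.38. In the interaction, Mylk ranged from −0.14 to 0.43 and Lmod1 from −0.91 to 0.083.

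With 3 libraries a group, precision was limited. At 52740545 to 59411044 counts per library, Actg2 and Cnn1 were too rare outside that library for a fold change.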

Other observations

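Markers of cornea, conjunctiva and lens, other tissues of the eye, varied widely without following the members. Their sum ranged from 45.3 to 662 CPM in IgG, from 4.99 to 1812 CPM in IgG+Mino, from 3.74 to 143 CPM in APB5 and from 29.6 to 133 CPM in APB5+Mino. APB5 replicate 3, the highest library for 9 of the 10 members, stood at 58.5 CPM. None of these markers was called in any comparison of groups.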
